A study of Macaca mulatta with 102 samples.

Results

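The transcripts described here are those whose level in the cells of rhesus macaque milk was higher at day 90 of lactation than at day 30, animal by animal. They were selected on the milk cell FPKM (fragments per kilobase of transcript, scaled to the mapped reads of the library, as deposited) of 6 animals, M1 to M6. A transcript was kept when its locus spanned over 1000 bases, its mean FPKM over the 12 milk cell samples was at least 2, its day 90 to day 30 ratio (0.1 added to both values) exceeded 1 in all 6 animals and that ratio was at least 1.5 in 5 or more of them. Of 42701 transcripts in the series, 9862 passed the limits on span and level and 236 (2.39% of these) met the whole rule. These 236 are the members. With the days exchanged, the same rule kept 120 transcripts (1.22%), called falling transcripts here.

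Milk carries RNA in shed epithelial cells and leukocytes, which are pelleted by centrifugation, and in the cytoplasm that a secreting epithelial cell leaves around some fat globules, which floats with the cream. The cell pellet is therefore a mixture, and its composition can differ between milkings. The alveolar epithelium makes caseins, whey proteins and lactose through the whole of lactation.

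RNA with poly(A) tails was sequenced from 6 multiparous, prime-aged dams of an outdoor breeding colony, all nursing male infants, sedated and given oxytocin for milking on each day. The groups were milk cells at day 30 (n = 6) and day 90 (n = 6), milk fat at day 30 (M1, M2, M3 and M6) and day 90 (n = 6), mammary biopsies at day 30 (M3, M4 and M6) and day 90 (M1, M2 and M5), and 6 day 90 samples labelled FatS10, FatsS10 or Skim10m. The last 6 were taken as the cell-free milk that the study describes, since no other label remained, and their values hold as cell-free milk only if that is right. The labels give no day 30 milk fat of M4 and M5, and the study left out day 30 milk RNA of 2 animals for its low integrity, so the 4 animals of the day 30 milk fat group were kept by RNA quality. No animal was biopsied on both days. After biopsy 1 dam had mastitis and received antibiotics, and the methods do not say which, so that day 90 milk of a dam biopsied at day 30 may have come after it. The values of each sample are means of 3 sequencing runs of that sample, and the milk samples of an animal were all in the same sequencing pool (M1 and M2 in pool 2, M3 and M4 in pool 3, M5 and M6 in pool 4).

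The deposited table names transcripts by Ensembl identifier only, and neither it nor the reference tables used here pair those identifiers with gene symbols, so members are given by their locus on the rheMac2 assembly. For the same reason leukocyte and epithelial marker genes could not be looked up. CSN2, the beta-casein gene (chr5:59676470-59680187, fixed by its mean level among the milk transcripts that the study names), was between 199149 and 633745 FPKM in the 34 samples, so milk secretory RNA was abundant in all of them, and it lay between 272092 and 416185 FPKM in day 30 milk cells and between 324270 and 494120 FPKM in day 90 milk cells. Depth cannot be read from FPKM directly. Relative to the median sample, depth estimated from the lowest FPKM steps ranged from 0.834 to 1.17 in milk cells, with medians of 0.983 at day 30 and 1.0 at day 90.

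The members were mostly transcripts of low to moderate level. Their mean FPKM in milk cells had a median of 4.62 (range 2.0 to 141), against 6.62 for the 9862 transcripts the rule could have kept. Of the members, 128 had a mean from 2 to 5 FPKM, 56 from 5 to 10, 47 from 10 to 50 and 5 above 50. The share of transcripts that became members was 3.35% among those from 2 to 5 FPKM and 0.722% among the 277 at 100 FPKM or more. The 3 sequencing runs of a milk cell sample had a median coefficient of variation of 8.96% over the members. Membership depended more on the run. On run 1, 2 or 3 alone the rule kept 236, 248 and 258 transcripts. Of the 236 members, 160 (67.8%), 172 (72.9%) and 173 (73.3%) were among them. Every member was above 0 in all 34 samples, but some values were too close to 0 to count as detection. Under 0.1 FPKM lay 4 to 10 members in each biopsy and 0 to 6 in each milk fat sample. The same count over the 9862 transcripts is not given here.

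The median of each member's 6 ratios ranged from 1.56 to 23.2, with a median over members of 2.35. It reached 2 in 180 members, 3 in 46 and 4 in 15. Since these ratios chose the members they are a description and carry no test. The size of the difference varied among the animals. The median ratio over the members was 2.30 in M1, 2.47 in M2, 1.31 in M3, 2.02 in M4, 2.44 in M5 and 3.30 in M6. M3 thus stood lowest and M6 highest, and 177 members had their lowest ratio in M3 while 131 had their highest in M6. Only 84 members reached 1.5 in M3, against 213 to 235 in each of the other animals. M3 and M4, the lowest and the next lowest animal by median ratio, were both in pool 3. Both were also biopsied at day 30, as was M6, the highest animal. The part of the pool and of the earlier biopsy in this was not tested.

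**Figure D1:**
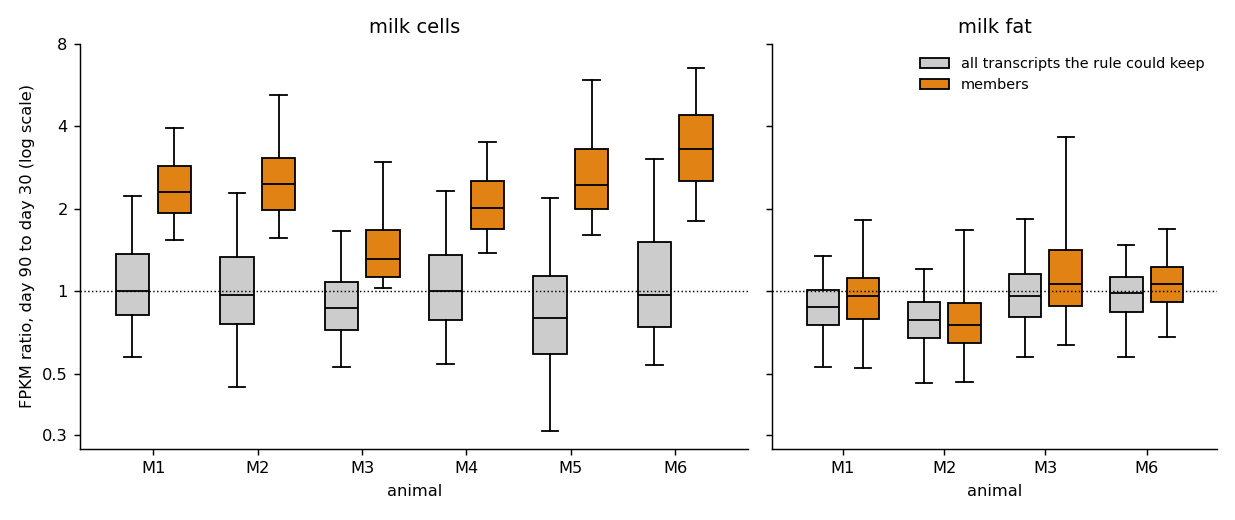
Day 90 to day 30 FPKM ratio on a log axis in milk cells (6 animals) and milk fat (4 animals with both days). Boxes show the quartiles and whiskers the 5th and 95th percentiles of the 236 members (orange) and of all 9862 transcripts the rule could have kept (grey). In milk cells the member medians range from 1.31 (M3) to 3.30 (M6), as selected, and in milk fat from 0.755 (M2) to 1.06 (M3 and M6).

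The transcripts as a whole did not move this way. Over all 9862 the median ratio was 1.0 in M1, 0.966 in M2, 0.867 in M3, 1.0 in M4, 0.801 in M5 and 0.973 in M6. M3 also had the smallest share of transcripts at a ratio of 1.5 or more, 7.26% against 13.2% to 25.2% in the other animals. With an animal left out, the ratio of 1.5 was required in 1 animal fewer. Without M3, 881 transcripts met this looser rule in the remaining animals. All 236 members were among them, which the looser rule fixes apart from the limit on mean level. Leaving out any other animal gave 249 to 340 transcripts, so M3 limited the number of members most. When samples were first scaled by median-of-ratios factors, 290 transcripts met the rule, and the 194 shared with the members were 82.2% of the members and 66.9% of the 290.

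Ranked by the fifth-highest of the 6 ratios, the members nearest the limit of 1.5 were chr15:81111332-81121958, chr2:88522412-88542056 and chr6:145347919-145349920, each at 1.51. Just outside it, each at 1.49, were chr19:60244395-60254865, chr11:110148915-110186179 and chr15:62599852-62607355. A ratio above 1 in all 6 animals was met by 731 of the 9862 transcripts (7.41%).

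Summed over the members, FPKM in day 30 milk cells ranged from 981 (M3) to 1814 (M4), and in day 90 milk cells from 1431 (M3) to 3572 (M4). At day 90 the 5 animals other than M3 lay between 3254 and 3572. In the other materials the sums of the same transcripts were 1785 ± 179 (SD, n = 4) in day 30 milk fat, 1972 ± 220 (n = 6) in day 90 milk fat, 3019 ± 414 (n = 3) in day 30 biopsies, 2681 ± 256 (n = 3) in day 90 biopsies and 2723 ± 293 (n = 5) in the FatS10 and FatsS10 samples. The Skim10m sample had 2565.

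**Figure D2:**
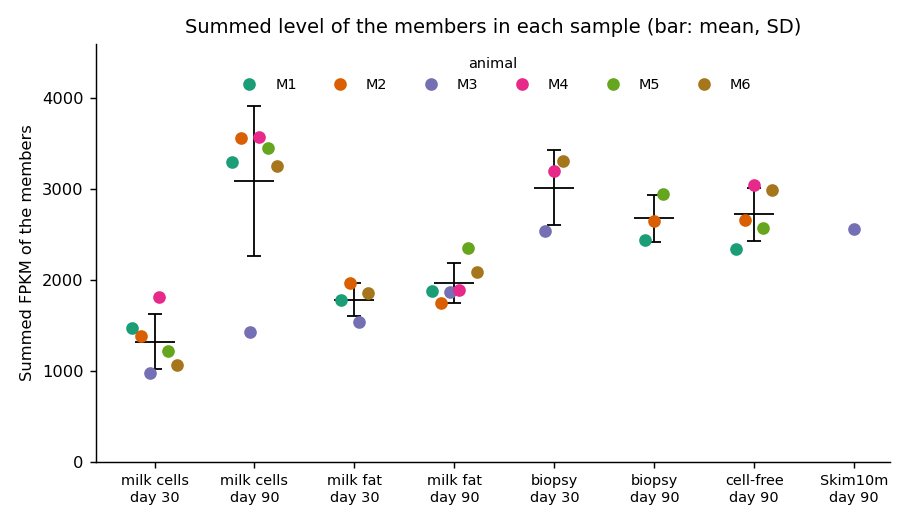
Summed FPKM of the 236 members in each of the 34 samples (points, coloured by animal), with the mean and SD of each group. Day 30 milk cells range from 981 to 1814, and the day 90 milk cells of 5 animals from 3254 to 3572, with M3 at 1431.

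Set against the other materials, the members were low in day 30 milk cells and close to the tissue at day 90. The mean of the day 30 milk cells was below that of the biopsies in 200 of 236 members (84.7%, against 30.5% of the 9862 transcripts), and the mean of the day 90 milk cells was below it in 97 (41.1%, against 27.2%). Day 30 milk cells were below cell-free milk in 234 members (99.2%, against 47.5%) and day 90 milk cells in 52 (22%, against 59.3%). Between milk fat and milk cells the order turned over, with day 30 cells below milk fat in 186 members (78.8%, against 48.1%) and day 90 cells below it in 20 (8.47%, against 48.3%). These counts use the milk cell values that chose the members, and are therefore a description.

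The highest mean level among the members, 141 FPKM over the 12 milk cell samples, belonged to ENSMMUT00000007367 (chr15:81111332-81121958). It had a lowest, median and highest FPKM of 55.2, 98.0 and 145 in day 30 milk cells and of 83.2, 194 and 245 in day 90 milk cells. Its day 30 milk fat values were 134, 129, 82.1 and 141 FPKM in M1, M2, M3 and M6, and its day 90 milk fat had a median of 144. The biopsies held 81.9, 196 and 164 FPKM at day 30 (M3, M4 and M6) and 105, 134 and 166 at day 90 (M1, M2 and M5), so tissue and milk carried this transcript at like levels and the biopsy days overlapped. M3 was the lowest animal in milk cells and milk fat on both days.

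Next in level was chr16:42467928-42510567, with a median of 60.0 FPKM at day 30 and 149 at day 90 in milk cells. The day 30 biopsies held more than both of these medians, at 201, 284 and 297 FPKM. The day 90 biopsies, at 123, 132 and 196 FPKM, lay on both sides of the day 90 milk cell median. The biopsy days did not overlap and lay in the opposite order to the milk cells, with a fitted log2 difference of -0.54 ± 0.19 SE (unadjusted p 0.0274, adjusted p 0.96, limma), which did not pass over all transcripts tested.

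The member at chr20:70561227-70583637 differed more among animals than between days. Its FPKM in day 30 milk cells was 168 in M1, 93.7 in M2, 106 in M3, 31.5 in M4, 12.6 in M5 and 0.709 in M6, and at day 90 it was 299, 207, 147, 111, 20.3 and 2.69 in the same order. M6 and M5 were lowest in the other materials as well. Milk fat at day 90 held 2.01 FPKM in M6 and 9.10 in M5 against 81.3 to 184 in the other animals, and the biopsies held 0.769 in M6 and 9.68 in M5 against 38.2 to 133. Cell-free milk held 2.32 in M6 and 9.12 in M5 against 90.8 to 222. At day 30 its milk fat values were 47.0, 42.4, 35.8 and 0.681 FPKM in M1, M2, M3 and M6, and each of these animals was higher at day 90, by ratios of 2.16 to 5.12.

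A block of neighbouring members lay on chromosome 11 between 110148504 and 110287469. It held 6 transcripts, of which 5 passed the limits on span and level and 4 were members, and the fifth was 1 of the 3 transcripts just outside the limit. The best represented was chr11:110218366-110232122, which overlaps no other transcript. It had a lowest, median and highest FPKM of 25.5, 31.9 and 58.3 at day 30 and 49.3, 119 and 163 at day 90 in milk cells, with ratios of 3.69, 4.74, 1.48, 1.74, 5.0 and 4.93 in M1 to M6. The ratios of chr11:110148504-110181772 were 3.25, 4.17, 1.55, 1.85, 4.72 and 4.51, and those of the overlapping chr11:110241374-110287284 and chr11:110249809-110287469 ran from 1.36 to 5.34 and from 1.24 to 4.21. All 4 members thus had the same order of animals at the low end, with M3 lowest and M4 next. In the biopsies the 110218366 transcript was at 44.4, 53.4 and 89.2 FPKM at day 30 and at 9.40, 16.4 and 67.2 at day 90, where M1 and M2 were lowest (log2 difference -1.14 ± 0.61 SE, adjusted p 0.96, limma).

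**Figure D3:**
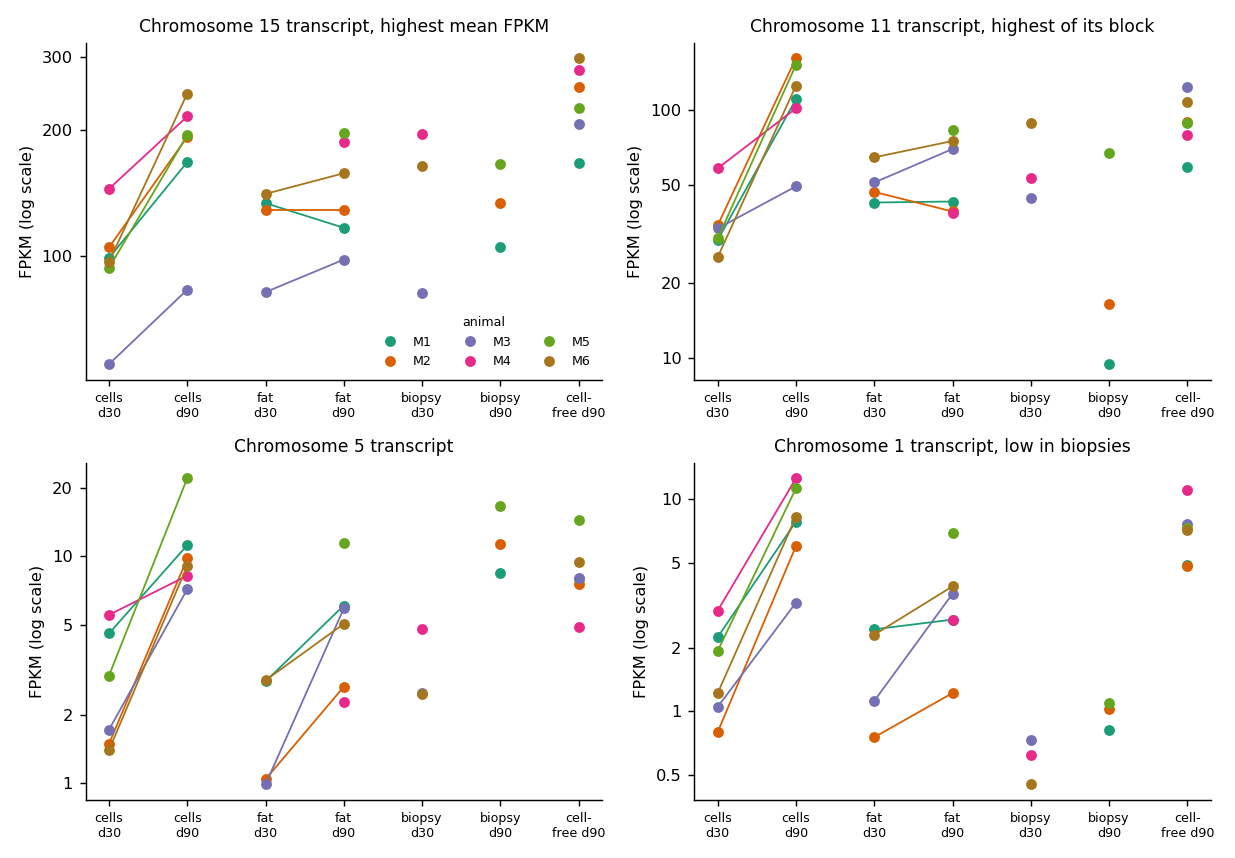
FPKM on a log axis of 4 members in every sample, coloured by animal, with lines joining the days of an animal in milk cells and milk fat. The cell-free column includes the Skim10m sample (M3). The chromosome 5 and chromosome 1 transcripts are higher at day 90 in all 4 paired milk fat samples, and the chromosome 1 transcript lies at 1.09 FPKM or below in the biopsies.

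Days that do not overlap put all 6 ratios above 1, so the rule favours such transcripts and their count is a description. The day 30 and day 90 milk cell samples did not overlap at all in 5 members, against 6 of the 9862 transcripts (0.0608%). One of them was ENSMMUT00000005583 (chr5:146954497-146961447), at 1.40, 2.35 and 5.52 FPKM (lowest, median, highest) in day 30 milk cells and at 7.16, 9.45 and 22.1 in day 90 milk cells. The day 30 milk fat held 2.81, 1.04, 0.987 and 2.84 FPKM in M1, M2, M3 and M6, and the day 90 milk fat of the same animals held 6.07, 2.66, 5.89 and 5.04. The biopsies held 2.50, 4.76 and 2.47 FPKM at day 30 and 8.46, 11.3 and 16.7 at day 90. This transcript was therefore higher at day 90 in every paired animal and in every day 90 biopsy. The fitted log2 differences were 1.20 ± 0.35 SE in milk fat (unadjusted p 0.00622, adjusted p 0.906, limma) and 1.87 ± 0.25 in biopsies (unadjusted p 0.000244, adjusted p 0.428, limma), and neither passed over all transcripts tested.

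Another of the 5 was chr1:156417516-156457502, which overlaps no other transcript and whose ratios were 3.41, 6.84, 2.92, 4.11, 5.58 and 6.36 in M1 to M6. Milk cells held 0.799, 1.58 and 2.99 FPKM (lowest, median, highest) at day 30 and 3.26, 8.08 and 12.6 at day 90. Milk fat held 2.44, 0.755, 1.12 and 2.30 FPKM at day 30 and 2.71, 1.22, 3.59 and 3.89 at day 90 in M1, M2, M3 and M6. Tissue held little of it, from 0.452 to 1.09 FPKM over the 6 biopsies, while the cell-free samples held 4.84 to 11.1. It was higher in milk fat than in biopsies by 0.94 ± 0.27 SE on the log2 scale (adjusted p 0.0105, limma).

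The third, chr1:24158855-24183338, had the opposite placement. Its FPKM was 0.521, 2.06 and 5.45 (lowest, median, highest) in day 30 milk cells and 5.80, 8.76 and 13.2 in day 90 milk cells, and 8.55 to 23.8 in the biopsies, with milk fat below the biopsies by -1.69 ± 0.36 SE on the log2 scale (adjusted p 0.00169, limma). The other two were named after their values were seen. At chr2:96112001-96154519 the day 30 milk cells lay between 2.51 and 14.1 FPKM and the day 90 milk cells between 19.7 and 30.2. At chr12:80226564-80292734 they lay between 0.00131 and 3.16 and between 3.43 and 10.5.

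The largest median ratios came partly from overlapping transcripts, among which the estimation of FPKM divides reads. The largest, 23.2 at chr1:11992899-12025261, came from a locus of 3 overlapping transcripts in which it made up 1.44% of the summed milk cell FPKM, with 0.000362, 0.000133 and 0.00593 FPKM in M1, M2 and M3 at day 30. The sum of that locus had ratios of 0.907 to 1.86, above 1 in 3 animals. Such an overlap existed for 172 members (72.9%, against 66.3% of the 9862 transcripts). When FPKM were summed over overlapping loci, 106 of these 172 lay in a locus whose sum met the rule. The 64 members that overlap no other transcript do not share reads in this way.

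Among those 64 were 6 of the 10 members with the largest median ratio. The chr15:98751206-98761744 transcript had ratios of 4.97, 5.15, 1.26, 12.8, 10.8 and 5.85 in M1 to M6. It was scarce in milk relative to tissue, with medians of 0.856 and 6.98 FPKM in day 30 and day 90 milk cells against 20.8 to 30.6 in the 6 biopsies. The short locus chr4:84072600-84074019 had ratios of 4.25, 6.44, 4.46, 6.45, 2.67 and 4.44. Its milk cell FPKM ran from 0.455 (M4) to 19.7 (M5) at day 30 and from 3.48 (M4) to 52.7 (M5) at day 90, and its biopsies from 0.0231 (M4) to 6.76 (M5), so that M4 was the lowest and M5 the highest animal in both materials. The chr1:112313913-112331514 transcript had a median of 0.641 FPKM at day 30 and 4.0 at day 90 in milk cells, and 3.84 to 7.24 in the biopsies.

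The members came from 211 separate loci and from every autosome. Chromosome 15 gave 18 members of 431 transcripts the rule could have kept (4.18%), chromosome 17 gave 7 of 171 (4.09%), chromosome 20 gave 16 of 414 (3.86%) and chromosome 11 gave 20 of 554 (3.61%). The lowest autosomal share was 1.26% on chromosomes 7 and 13. None of the 322 such transcripts of chromosome X was a member, while 8 of them were among the 120 falling transcripts. Within 200000 bases of another member lay 87 members in 38 groups, and 19 of these groups held members of 2 or more separate loci.

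Members spanned long loci. Their median span was 33215 bases (quartiles 13105 and 75669), against 21353 (8239 and 49670) for all transcripts the rule could have kept and 9678 for the falling ones. The rule used span only as a lower limit of 1000 bases. Members made up 1.10% of the transcripts with spans of 1000 to 5000 bases and 4.51% of those with spans of 100000 to 300000, and the falling transcripts 2.07% and 0.549% of the same classes. The median ratio of all transcripts in a class also differed with span in milk cells. In the shortest class it was between 0.701 and 0.971 over the 6 animals, and in the class above 300000 bases (107 transcripts) between 0.956 and 1.16. In milk fat the same medians went from 0.946 to 0.849 in M1, from 0.843 to 0.777 in M2, from 0.924 to 1.03 in M3 and from 1.04 to 0.961 in M6. Level differed with span as well, with a median of 8.68 FPKM in the shortest class and 4.83 in the longest. By level, the median milk cell ratio was between 0.858 and 1.13 over the animals at 2 to 5 FPKM. At 100 FPKM or more it was between 0.643 and 0.870. Span was thus associated with higher day 90 levels in the cells of all 6 animals and in the fat of M3 only, and the part of level in this was not tested. RNA integrity per library was not at hand, and its part in this was not tested. In bulk RNA, fewer cells of a type and less RNA per cell cannot be told apart.

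**Figure D4:**
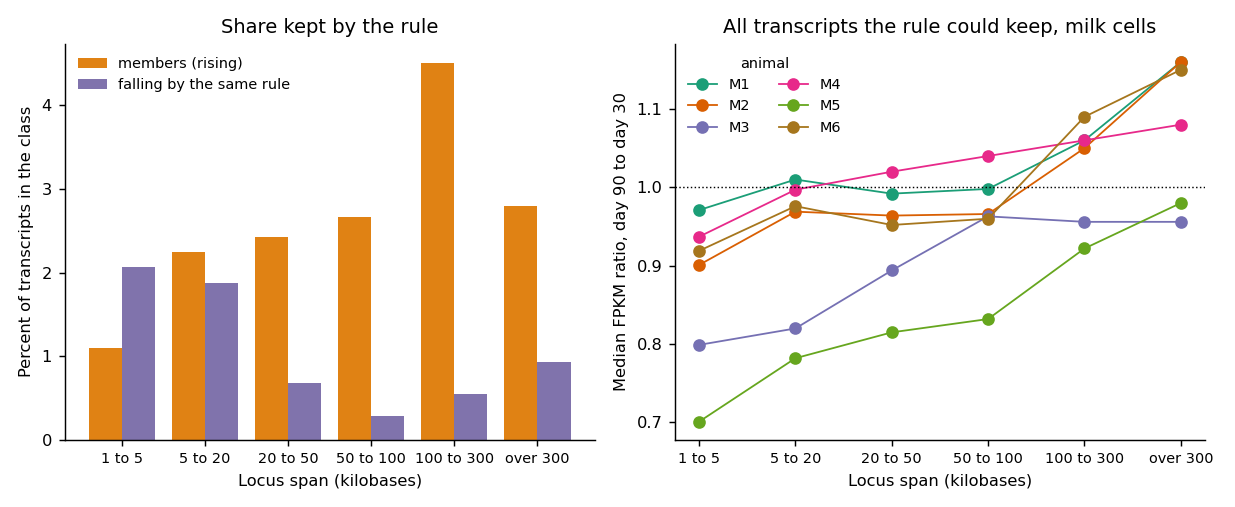
Left, percent of the transcripts in each class of locus span that were members (orange) or met it with the days exchanged (purple). Right, median day 90 to day 30 ratio in milk cells of all transcripts the rule could have kept, by class and animal. Members make up 1.10% of the class from 1000 to 5000 bases and 4.51% of that from 100000 to 300000 bases.

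Milk fat offered a test of the day outside the samples that chose the members. No member was called, as was no transcript in the whole table (0% of 12609 higher and 0% lower at an adjusted p under 0.05, limma, 4 day 30 against 6 day 90 samples). The lowest adjusted p among the members was 0.769. By another method, DESeq on counts per gene, the study did report genes that differed between the days in milk fat and in mammary tissue. Of the 236 members, 226 had a mean of at least 1 FPKM and were tested. At an unadjusted p under 0.05, 21 of them were higher and 1 was lower at day 90, while 3.38% and 1.86% of all transcripts tested were. Their median log2 difference was 0.14, against 0.02 for all tested, and 184 of 226 were above 0 (81.4%, against 54.1%). Without scaling the member median turned to -0.01 and that of all transcripts to -0.14, so the gap between them, 0.12, became 0.13. Leaving out M5 lowered the member median to 0.08. With animal as a block the pairing left a member median of 0.05 against 0.02, with 143 of 226 members above 0 (63.3%, against 53.8% of all transcripts tested). With the block 38 members were higher and 2 lower at an unadjusted p under 0.05, while 8.61% and 4.20% of all transcripts were, and none was called.

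Animal by animal, the unscaled milk fat ratio of the members had a median of 0.960 in M1 (0.876 over the 9862 transcripts), 0.755 in M2 (0.786), 1.06 in M3 (0.958) and 1.06 in M6 (0.988). All 4 medians lay below those of the same animals' cells, which were 2.30, 2.47, 1.31 and 3.30. The rule selected high ratios in cells and not in milk fat, so this order was largely fixed by the selection and is a description. Of the members, 24 were higher at day 90 in all 4 animals (10.2%, against 3.74%) and 27 in none (11.4%, against 22.3%). M3, which had the lowest ratios in cells, had the highest share of members at a ratio of 1.5 or more in milk fat, 52 against 16 to 25 in the other animals. This was not particular to the members. Over the 9862 transcripts the 95th percentile of the milk fat ratio was also highest in M3, at 1.84, and next highest in M6, at 1.48.

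The biopsies gave no called member either, and 0% of 13762 transcripts were called higher and 0% lower (limma, 3 against 3). The lowest adjusted p among the members was 0.428. Of 220 members tested, 6 were higher and 10 lower at day 90 at an unadjusted p under 0.05, against 1.63% and 1.57% of all transcripts. The member median was 0.01 on the log2 scale, equal to that of all transcripts at 0.01, and 111 of the 220 were above 0. Without scaling both shifted, to -0.21 and -0.20. Before scaling, 60 members (25.4%) had a higher mean at day 90, as did 21.7% of the 9862 transcripts. Within pool 3, the 1 pool with both days (M3 and M4 against M5), 117 did (49.6%, against 51.3%).

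**Figure D5:**
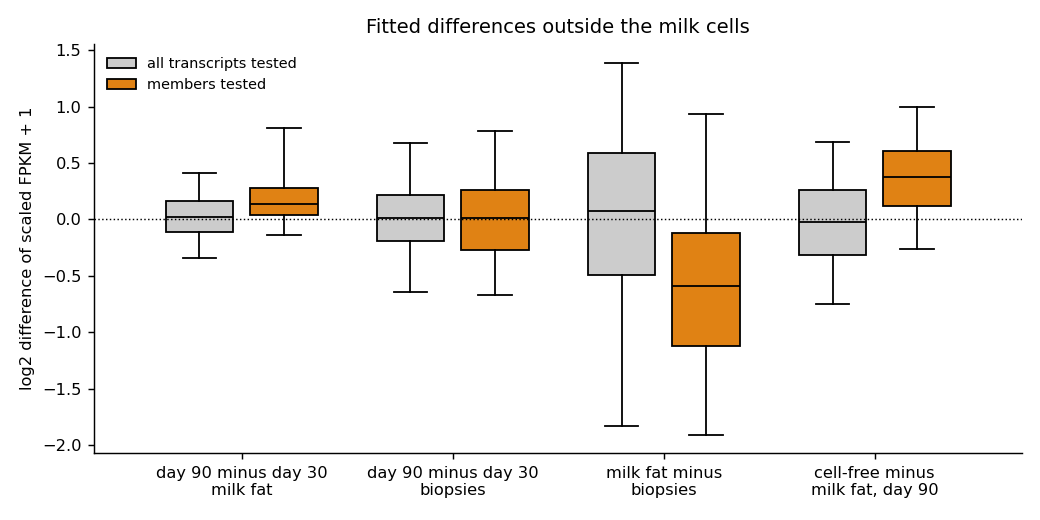
Fitted log2 differences (scaled FPKM + 1) of the members tested (orange) and of all transcripts tested (grey) in the 4 comparisons outside milk cells. Boxes show quartiles, whiskers the 5th and 95th percentiles. The member medians are 0.14, 0.01, -0.59 and 0.38, against 0.02, 0.01, 0.07 and -0.02 for all transcripts.

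Between milk fat and mammary tissue the members lay on the side of tissue. Over 6 animals each, 122 of 230 members tested were lower in milk fat than in biopsies (53.0%) and 18 were higher (7.83%), where 25.0% of 13413 transcripts were lower and 29.9% higher (limma, adjusted p under 0.05). The median log2 difference was -0.59 for the members and 0.07 for all transcripts. With scaling to the 75th percentile, which moved the median of all transcripts to 0.28, 40.5% of all transcripts were called higher and 18.5% lower, and 98 members were lower and 28 higher. Among the 9460 transcripts tested that passed the limits on span and level, 21.9% were lower and 33.0% higher. Each animal's milk fat was averaged over its days, and the 6 biopsies are 3 of each day.

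The member lowest in milk fat relative to tissue was the chr15:98751206-98761744 transcript, by -2.75 ± 0.24 SE on the log2 scale (adjusted p 1.4e-06, limma). The next was chr4:43682528-43699099, at 19.1 to 23.7 FPKM in the 6 biopsies and 2.03 to 4.89 in the 10 milk fat samples, with no overlap (-2.50 ± 0.17, adjusted p 1.1e-07). The next ones belonged to a single group of neighbours on chromosome 14, at 16106551-16119907 (-2.40 ± 0.21) and 15800332-15818324 (-2.35 ± 0.35). The latter had 30.3 to 94.1 FPKM in biopsies, medians of 8.78 and 26.2 FPKM in day 30 and day 90 milk cells and a day 90 milk fat median of 14.7. Of these, all but the chromosome 15 transcript share their locus with others, and the chr14:16106551-16119907 transcript made up 9.96% of its locus in milk cells.

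A smaller set was nearly missing from tissue. In 8 members all 6 biopsies were under 1 FPKM, while their medians ran from 0.844 to 3.13 FPKM in day 30 milk cells, from 2.81 to 9.25 in day 90 milk cells and from 1.91 to 4.45 in cell-free milk. The rule set a level in milk cells only, and the same count over all transcripts it could have kept is not given here. Whether such transcripts are more or less frequent among the members was therefore not tested. The chr4:157004650-157097163 transcript was at 0.000828 FPKM or below in all 6 biopsies and had milk cell medians of 2.48 and 9.25 FPKM, although it shares its locus with 3 other transcripts. The chr1:13322960-13473648 transcript was at 0.577 FPKM or below in biopsies, with milk cell medians of 3.13 and 6.51. Both were higher in milk fat, by 1.33 ± 0.26 SE (adjusted p 0.000942, limma) and 1.40 ± 0.18 (adjusted p 3.8e-05). Members high in tissue and members nearly missing from it thus met the same rule in milk cells.

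Cell-free milk held more of the members than milk fat of the same day. At day 90, with 6 samples each, 89 of 234 members tested were higher in cell-free milk (38.0%) and 3 were lower (1.28%), where 13.4% of 12730 transcripts were higher and 17.1% lower (limma). The member median was 0.38 on the log2 scale and that of all transcripts -0.02. With animal as a block the pairing gave 144 higher and 9 lower, where 21.5% of all transcripts were higher and 25.6% lower. Without scaling 102 members were higher and 2 lower (16.2% and 8.31% of all transcripts), and with scaling to the 75th percentile 77 and 6 (10.2% and 21.6%). The count of 89 fell to 52 without M2, to 45 without M3 and to 52 without M6, and was 68 without the Skim10m sample, while the share of all transcripts called higher fell to 8.41%, 8.71%, 8.28% and 10.3% in the same order.

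The member with the largest such difference was chr6:147888988-147921101, at 6.45 to 39.7 FPKM in the 6 cell-free samples and 0.0812 to 9.57 in day 90 milk fat (log2 difference 1.73 ± 0.48 SE, adjusted p 0.0187, limma). It made up 36.8% of a locus of 4 transcripts, and its milk cell ratios in M1 to M6 were 3.75, 4.35, 1.20, 4.11, 7.5 and 7.97. A difference of the same size, 1.73 ± 0.39, was found at chr1:11380682-11449312. The chr8:38310653-38349824 transcript separated the materials without overlap, with 15.1 to 27.4 FPKM in cell-free milk and 6.98 to 11.2 in milk fat (1.14 ± 0.16, adjusted p 0.00306). The 3 members that were lower in cell-free milk were chr9:121782322-121871452 (-1.21 ± 0.25, adjusted p 0.00605), chr7:7013174-7180771 (-0.50 ± 0.16) and chr20:53162793-53166075 (-0.37 ± 0.10). The first of them had a day 90 median of 23.9 FPKM in milk fat and 9.16 in milk cells. It made up 49.3% of the milk cell FPKM of a locus of 5 transcripts. The other member in that locus, chr9:121664363-121870970, differed by -0.13 ± 0.20 SE in the same comparison (adjusted p 0.637, limma).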

How the data were processed

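Libraries of poly(A) RNA were sequenced in single 100-base reads by the authors, trimmed, mapped to rheMac2 with TopHat (Bowtie) and quantified per Ensembl transcript with Cufflinks. The authors deposited FPKM, which hold no counts, so no counting interval was computed. The depth of each library, as a ratio to the middle one, came from the smallest FPKM steps of transcripts that overlap no other. The 102 columns used were averaged over 3 sequencing runs to 34 samples, and 6 columns that match no described sample were not used. The members and tests were chosen with earlier results of these data known. The members to be described were those with the 10 largest median ratios, the 10 highest mean levels, the 5 largest called differences in each direction of each test and the 3 nearest the limit on each side. Gene lists and cell type markers written for this work could not be applied, since 0 identifiers matched a symbol. Alternatives were other offsets, filters, scalings and ratio limits, single runs, animal as a block and each animal left out.

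Before testing, each sample was divided by a median-of-ratios factor, and log2(scaled FPKM + 1) was fitted with limma 3.58.1 (R 4.3.3, trend in the prior variance) over transcripts with a mean of at least 1 FPKM in the samples compared. P-values were two-sided and adjusted by Benjamini-Hochberg over all transcripts tested. Fold changes on this scale understate those of low transcripts. Where an animal had milk fat of both days, its log2 mean was set against its biopsy. The fits were tested on simulated data. Animals pair the samples by label, and the deviations of an animal's 2 milk fat days correlated at 0.28 to 0.61. Python 3.11.15 with numpy 2.4.6 and pandas 2.3.3 was used. Replicates are separate animals. No sequence is shown, as no genome was used.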

Additional observations from a re-analysis of the deposited data

Results flagged for a closer look

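Dixon's criterion was applied to 106 groups of 4 to 6 values, and it marked 9 values. The groups covered the summed level of the members, their median ratio by animal and the levels of 20 of them, those with the largest ratios or highest levels. Biopsies, at 3 a day, and the Skim10m sample were not screened. Chance marks about 1 in 20 such groups. The summed FPKM of the members in day 90 milk cells was 1431 in M3, and 3254 to 3572 in the other animals. In day 30 milk cells M4 was above the other animals in 3 members of the chromosome 11 block, with 58.3 FPKM at 110218366-110232122 (others 25.5 to 34.3), 42.1 at 110148504-110181772 (others 21.7 to 28.3) and 38.2 at 110241374-110287284 (others 16.6 to 22.7). M4 also had 3.60 FPKM at chr4:43521051-43529327 in day 30 milk cells (others 0.240 to 1.27). M5 had 22.1 FPKM at chr5:146954497-146961447 in day 90 milk cells (others 7.16 to 11.2). At chr4:84072600-84074019 M5 had 19.7 FPKM in day 30 milk cells (others 0.455 to 5.67) and 27.3 FPKM in day 90 milk fat (others 1.32 to 10.3). M6 had 0.638 FPKM at chr10:67404611-67435242 in day 90 milk fat, where the other animals had at most 0.209.

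The chr1:28653194-28660118 transcript was higher at day 90 in the milk cells of all 6 animals, as selected, and lower at day 90 in the milk fat of all 4 animals with both days, with a median ratio of 0.825. The difference between the materials was not tested, and with scaling its fitted milk fat difference was -0.03 ± 0.13 SE on the log2 scale.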

How the results depend on the processing

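Of 116 alternative values over 9 results, 102 lay within 1.5 times the reported count. Among these were all values for the day in milk fat and in biopsies. No member was called there under any setting, so those values say little about the processing. The number of members was compared as a count only. Single runs gave like counts but kept 67.8% to 73.3% of the members. The number of members, 236, moved to 108 with a mean FPKM of at least 5, to 77 with a ratio of at least 2 in 5 or more animals and to 411 with a ratio of at least 1.3. Leaving out each animal, with 1.5 required in 1 animal fewer, gave 249 to 881 transcripts, the highest without M3. In milk fat against biopsies, the 18 members called higher became 28 with scaling to the 75th percentile. In cell-free milk against milk fat, the 89 members called higher became 49 with no filter on low values and 144 with animal as a block, and 45 to 89 with each animal left out. The 3 called lower became 6 with scaling to the 75th percentile and 9 with animal as a block, and 1 to 4 with each animal left out (1 without M1 and 1 without M2). The cause of these moves was not tested, except that fewer samples or more transcripts tested follow from the construction. The pairing by animal as a block changed no other count of members called by more than 1.5 times, and could not be fitted for the days of biopsies, since no animal was biopsied on both. FPKM hold no counts, so counting error could not be given, and the values of overlapping transcripts depend on how reads were divided between them. With 3 biopsies a day, differences in tissue smaller than the spread between animals were not detectable.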
